A study of Mus musculus with 14 samples.

Results

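The genes described here are the tubulins of the left ventricle and Vash1, a tubulin-modifying enzyme. The 10 genes were taken by symbol from the table of raw counts, out of 49315 genes listed there. They are 4 alpha tubulins (Tuba1a, Tuba1b, Tuba1c and Tuba4a), 5 beta tubulins (Tubb2a, Tubb2b, Tubb4b, Tubb5 and Tubb6) and Vash1. Each symbol gave 1 row, and all 10 were among the 15292 genes with enough reads for a test. Left ventricular tissue came from WT mice and from HCN4F mice, a knock-in line in which a tyrosine of the pacemaker channel HCN4 is replaced by phenylalanine (zygosity is not in the labels). Male mice aged 10 to 12 weeks had either transverse aortic constriction (TAC), which narrows the aorta and overloads the ventricle with pressure, or Sham surgery, and hearts were taken 5 weeks later. The groups were WT-Sham (n = 4), WT-TAC (n = 2, replicates 2 and 3), HCN4F-Sham (n = 4) and HCN4F-TAC (n = 4), 14 libraries of poly(A)-selected RNA in all. The count table holds 2 further columns named as TAC in WT that match no sample label and were not used, so that WT-TAC values rest on 2 libraries. The study describes its samples as biological replicates, 4 in each group, while the labels do not say whether a library is 1 animal. The tests measure the spread between these libraries.

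Microtubules are hollow filaments built from dimers of an alpha and a beta tubulin, and most animals carry several genes, or isotypes, of each. In heart muscle they carry cargo for the kinesin and dynein motors and bear load during contraction. Most alpha tubulins end in an encoded tyrosine, which Vash1 or Vash2, each with its partner Svbp, can remove and which the ligase Ttl can put back. Detyrosinated microtubules are known to attach to desmin filaments at the Z-disc of cardiomyocytes and to resist shortening, and growth of the microtubule network is a known feature of pressure overload.

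Alpha tubulin genes differ in the residue on which this cycle acts. The last 30 bases of coding sequence before the stop codon are shown for Tuba1c and Tuba4a, as examples with and without that residue, and for Tuba8, a further alpha tubulin that was chosen after its values were seen. They were read from GENCODE mouse transcripts on GRCm38, the build in the submitters' processing notes, 5′ to 3′ on the coding strand, with the last codon in capitals.
Tuba1c, chr15:99037977-99038006, plus strand: gctgaaggagacgatgagggtgaggaaTAT
Tuba4a, chr1:75215625-75215654, minus strand: tcctatgaggacgaggatgagggagaaGAG
Tuba8, chr6:121226047-121226076, plus strand: tttgaagaagagaatgagggggaggaaTTT
Tuba1c ends in a tyrosine codon (TAT). Tuba4a ends in a glutamate codon and Tuba8 in a phenylalanine codon, so that neither encodes the terminal tyrosine.

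Depth was 22309914 to 35210939 counts per library. The 10 members took 0.0904% to 0.129% of the counts, or 21481 to 45074 reads per library, and a count of 0 allows up to 3 reads, which is 0.0859 to 0.137 counts per 1000000 reads (CPM) and covers counting error only. CPM here is scaled with edgeR's TMM normalization. Hcn4 gave 106 to 470 reads per library, which does not tell the genotype, since the knock-in leaves the transcript in place. The 8 ventricular cardiomyocyte markers were detected in every library, with a summed level of 54222 to 74809 CPM. Of 5 atrial muscle markers, 3 found little in ventricle stood out in HCN4F-TAC replicate 2, with 115 reads of Sln, 301 of Myl7 and 527 of Myl4 against at most 9, 23 and 100 in the other libraries. Bmp10 had 0 reads there and 13 in HCN4F-TAC replicate 4, which also had the next highest level of Myl4 (4.07 against 17.4 CPM) and of Nppa (1179 against 1832 CPM). The members' changes after TAC in HCN4F hearts are therefore also given without this library.

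Levels of different genes were compared per kilobase of their annotated exons, on a linear scale. In WT-Sham hearts Tuba4a stood highest, at 172 CPM per kilobase (164 to 182 over the libraries). Tubb4b followed at 101 (93.9 to 105) and Tuba1b at 47.7 (45.2 to 50.02). Tubb5 (34.8) and Tuba1a (33.6) came next, and the ranges of this pair overlapped. Below them lay Tubb2a at 27.5 and Tubb6 at 16.6, each apart from its neighbours. Vash1 (6.88 CPM per kilobase) and Tuba1c (6.19) overlapped, and Tubb2b was lowest at 2.04. The most abundant of the 4 alpha tubulin messages was thus Tuba4a, which has no encoded terminal tyrosine. Of the summed level per kilobase of the 4 alpha members, Tuba4a made up 66.3% in WT-Sham, 59.7% in WT-TAC, 63.4% in HCN4F-Sham and 56.7% in HCN4F-TAC hearts. These shares leave out Tuba8, which had 109 CPM per kilobase in WT-Sham hearts and overlapped with Tubb4b. With Tuba8 counted among the alpha genes, the share of Tuba4a was 46.6% in WT-Sham, 38.8% in WT-TAC, 46.9% in HCN4F-Sham and 39.0% in HCN4F-TAC hearts. Most of the beta level was Tubb4b, with 51.8% to 56.1% of the 5 beta members over the groups.

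**Figure D1:**
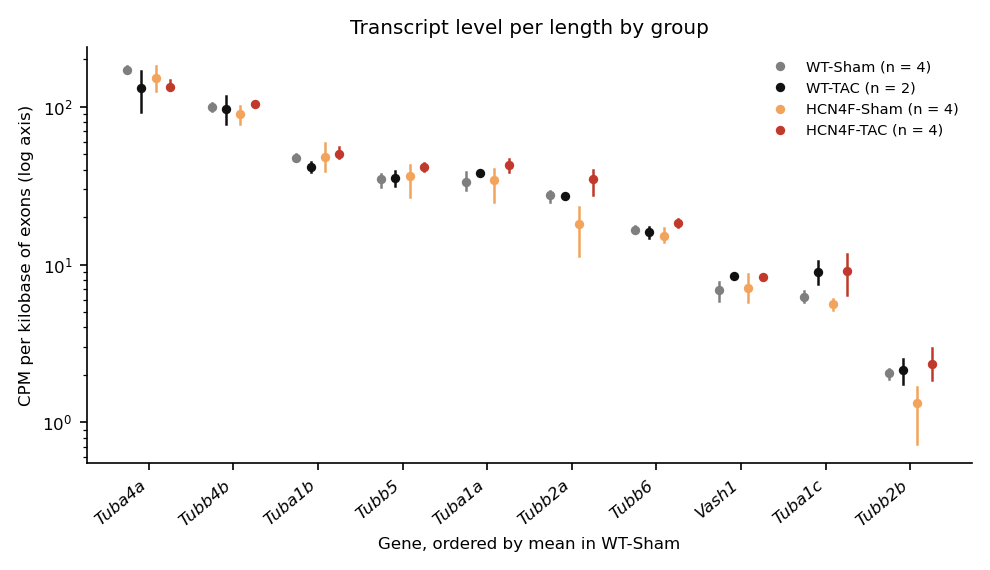
Level of each gene in CPM per kilobase of exons (log axis) by group, with genes ordered by their mean in WT-Sham; points are group means and lines run from the lowest to the highest library. Tuba4a and Tubb4b lead in each group, and Tubb2b is lowest.

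Some of these genes are near copies of each other, which limits how far their reads can be told apart. Tuba1a, Tuba1b and Tuba1c lie together on chromosome 15, between 98931425 and 99038110 (GRCm38). The coding sequences of Tuba1a and Tuba1b were 98.3% identical, and those of Tuba1b and Tuba1c 99.3% over the first, gap-free stretch compared. Tubb2a (34074274 to 34078007) and Tubb2b (34126748 to 34130466) are neighbours on chromosome 13 with 96.5% identical coding sequence. Of all windows of 100 bases along the transcript, 38.4% also occurred in another member for Tuba1a, 52.3% for Tuba1b, 53.4% for Tuba1c, 35.9% for Tubb2a and 26.1% for Tubb2b. No such window was found in Tuba4a, Tubb4b, Tubb5, Tubb6 or Vash1. How the reads shared by copies were counted is not given in the sources used here, so single values of the Tuba1 genes and of the Tubb2 pair are uncertain, and their sums are given as well.

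In HCN4F hearts the tubulin transcripts Tubb2a, Tubb2b, Tuba1c and Tubb6 rose after TAC, by up to 1.95-fold, and none of the 10 members fell. A gene is said here to have risen or fallen where its adjusted p was under 0.05 in the quasi-likelihood test of edgeR after adjustment over all 15292 genes by Benjamini and Hochberg. By this rule 4 of 10 members passed, all higher, against 13.6% of all tested genes (7.2% higher and 6.41% lower). The members were chosen with earlier results of these data known, so that this count is no test of an excess. The study's threshold asks in addition for a log2 fold change above 1 or below -1, and no member met it, against 2.75% of all tested genes. DESeq2 called no member by that threshold either, and 6 of 10 members had an unadjusted p under 0.05 in edgeR, against 28.3% of all tested genes. The libraries of HCN4F-TAC and HCN4F-Sham did not overlap for 4 of 10 members, against 15.1% of all tested genes.

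Tubb2a (ENSMUSG00000058672), a beta tubulin best known from nervous tissue, changed the most. Its level was 37.2, 33.4, 18.1 and 27.6 CPM in HCN4F-Sham replicates 1 to 4. In HCN4F-TAC replicates 1 to 4 the values were 54.2, 62.9, 44.7 and 63.9 CPM. Each HCN4F-TAC library lay above each HCN4F-Sham library, and HCN4F-Sham replicate 3 was the lowest. The HCN4F-Sham mean of 29.1 CPM ± 8.27 (SD, n = 4) rose 1.95-fold, to 56.4 CPM ± 8.94 (SD, n = 4). The log2 fold change was 0.96 with a standard error (SE) of 0.17, at an edgeR adjusted p of 0.00276. Leaving out HCN4F-Sham replicate 3 gave 0.78, and leaving out HCN4F-TAC replicate 2 gave 0.90. Without HCN4F-Sham replicate 1 (1.10) or 2 (1.03) or HCN4F-TAC replicate 3 (1.06) it met the study's threshold.

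The promoter of Tubb2a is shown because this gene had the largest change and because, of the 8 member promoters found in RefSeq, it alone carried a TATA box. It is the 250 bases before the RefSeq start site at chr13:34078009-34078258 (GRCm38.p6, minus strand), with motif matches in capitals.
Tubb2a promoter: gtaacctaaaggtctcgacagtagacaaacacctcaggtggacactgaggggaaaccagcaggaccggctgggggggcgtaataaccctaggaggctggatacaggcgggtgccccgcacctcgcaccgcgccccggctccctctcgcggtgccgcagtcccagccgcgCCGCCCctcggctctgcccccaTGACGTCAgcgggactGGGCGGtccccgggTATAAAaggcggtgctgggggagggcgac
The motifs searched, on both strands and chosen after these promoters had been read, were the TATA box (letters TATAAA), the GC box (letters GGGCGG), the CCAAT box (letters as in its name) and the cyclic AMP response element (TGACGTCA). The marked matches do not overlap. A TATA box was present in 12.4% of 32851 mouse promoters of this length, a GC box in 32.7%, a CCAAT box in 33.8% and the response element in 1.55%. Of the 8 members with a promoter in the RefSeq table, 1 had the TATA box and the response element (Tubb2a in both cases), 5 a GC box and 4 a CCAAT box. Tubb2b and Tubb6 were not matched.

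Tubb2b (ENSMUSG00000045136), the close copy of Tubb2a, moved with it at a lower level, 1.33 against 18.0 CPM per kilobase in HCN4F-Sham hearts. It stood at 3.84, 3.38, 1.66 and 3.32 CPM in HCN4F-Sham replicates 1 to 4. In HCN4F-TAC replicates 1 to 4 it stood at 6.76, 4.35, 4.27 and 6.06 CPM. The groups did not overlap, and HCN4F-Sham replicate 3 was again the lowest library. Tubb2b rose by 0.81 ± 0.22 (SE) on the log2 scale at an edgeR adjusted p of 0.0194, and the test was no longer passed without HCN4F-TAC replicate 1 (adjusted p = 0.0643) or replicate 4 (0.0568). Without HCN4F-TAC replicate 2 the value was 0.90, and the test was passed. Because the pair shares reads, the sum is given too. Tubb2a and Tubb2b together had 32.1 CPM ± 9.18 (SD, n = 4) in HCN4F-Sham (19.8 to 41.0) and 61.8 CPM ± 9.33 (SD, n = 4) in HCN4F-TAC (49.0 to 70.0).

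Tuba1c (ENSMUSG00000043091), the least abundant alpha member, rose as well. Its level was 13.9, 11.8, 12.4 and 13.3 CPM in HCN4F-Sham and 23.6, 26.6, 14.7 and 18.9 CPM in HCN4F-TAC replicates 1 to 4. The groups did not overlap, and HCN4F-TAC replicate 3 lay just above the highest HCN4F-Sham library. On the log2 scale Tuba1c rose by 0.70 ± 0.15 (SE) at an edgeR adjusted p of 0.00677, or 1.63-fold. It was 0.56 without HCN4F-TAC replicate 2 and 0.84 without replicate 3, and the test was passed in each of these fits. Its promoter, shown for contrast with that of Tubb2a, carried a CCAAT box (capitals, on the reverse strand) and none of the other 3 motifs. It lies at chr15:99029641-99029890 (GRCm38.p6, plus strand).
Tuba1c promoter: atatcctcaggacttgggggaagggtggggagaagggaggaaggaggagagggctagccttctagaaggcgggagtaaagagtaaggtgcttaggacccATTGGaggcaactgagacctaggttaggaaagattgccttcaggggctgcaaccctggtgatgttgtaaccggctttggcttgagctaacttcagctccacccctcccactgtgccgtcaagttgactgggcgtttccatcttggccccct

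Tubb6 (ENSMUSG00000001473, chromosome 18), a broadly expressed beta tubulin, had a small change. It stood at 41.7, 36.0, 36.4 and 33.8 CPM in HCN4F-Sham and at 44.1, 47.4, 42.3 and 44.0 CPM in HCN4F-TAC replicates 1 to 4. The groups did not overlap, with the highest HCN4F-Sham library just below the lowest HCN4F-TAC library. On the log2 scale Tubb6 rose by 0.27 ± 0.08 (SE) at an edgeR adjusted p of 0.0289. The test was no longer passed without HCN4F-Sham replicate 2, 3 or 4 or HCN4F-TAC replicate 1, 2 or 4, with adjusted p-values of 0.0565 to 0.0899 in the same edgeR test. Fitted on the HCN4F groups alone, edgeR passed Tuba1c and Tubb2a only.

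The other alpha and beta members did not pass in HCN4F hearts. Tuba1a, the main alpha tubulin of neurons, had a log2 fold change of 0.31 ± 0.12 (SE) at an edgeR adjusted p of 0.101, with 45.2 to 73.1 CPM in HCN4F-Sham and 69.3 to 83.9 CPM in HCN4F-TAC hearts. It passed without HCN4F-Sham replicate 2 (adjusted p = 0.0475). The broadly expressed Tuba1b (0.08), Tubb4b (0.21) and Tubb5 (0.19) had smaller values. Tuba1b had 73.2 to 111 CPM in HCN4F-Sham and 88.5 to 105 CPM in HCN4F-TAC hearts, Tubb4b 163 to 212 and 212 to 224 CPM, and Tubb5 89.7 to 143 and 130.2 to 148 CPM. The groups overlapped for each of these 3 genes. As the sum of the Tuba1 genes that share reads, 165 CPM ± 24.4 (SD, n = 4) was found in HCN4F-Sham (131 to 186) and 193 CPM ± 11.9 (SD, n = 4) in HCN4F-TAC hearts (175 to 202), and these ranges overlapped.

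Tuba4a (ENSMUSG00000026202), the most abundant member, was the only one with a lower mean after TAC in HCN4F hearts. It stood at 672, 623, 499 and 465 CPM in HCN4F-Sham and at 476, 485, 552 and 471 CPM in HCN4F-TAC replicates 1 to 4. The groups overlapped, with a wide spread in HCN4F-Sham. The log2 difference was -0.19 ± 0.15 (SE) at an edgeR adjusted p of 0.449. Without HCN4F-TAC replicate 2, in which Sln and Myl7 stood out, 3 of 10 members passed (Tubb2a, Tubb2b and Tuba1c), against 8.73% of all tested genes in that fit. Tubb6 was then at 0.23, Tuba1a at 0.31, Tuba1b at 0.0738, Tuba4a at -0.18, Tubb4b at 0.19, Tubb5 at 0.21 and Vash1 at 0.23 on the log2 scale.

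**Figure D2:**
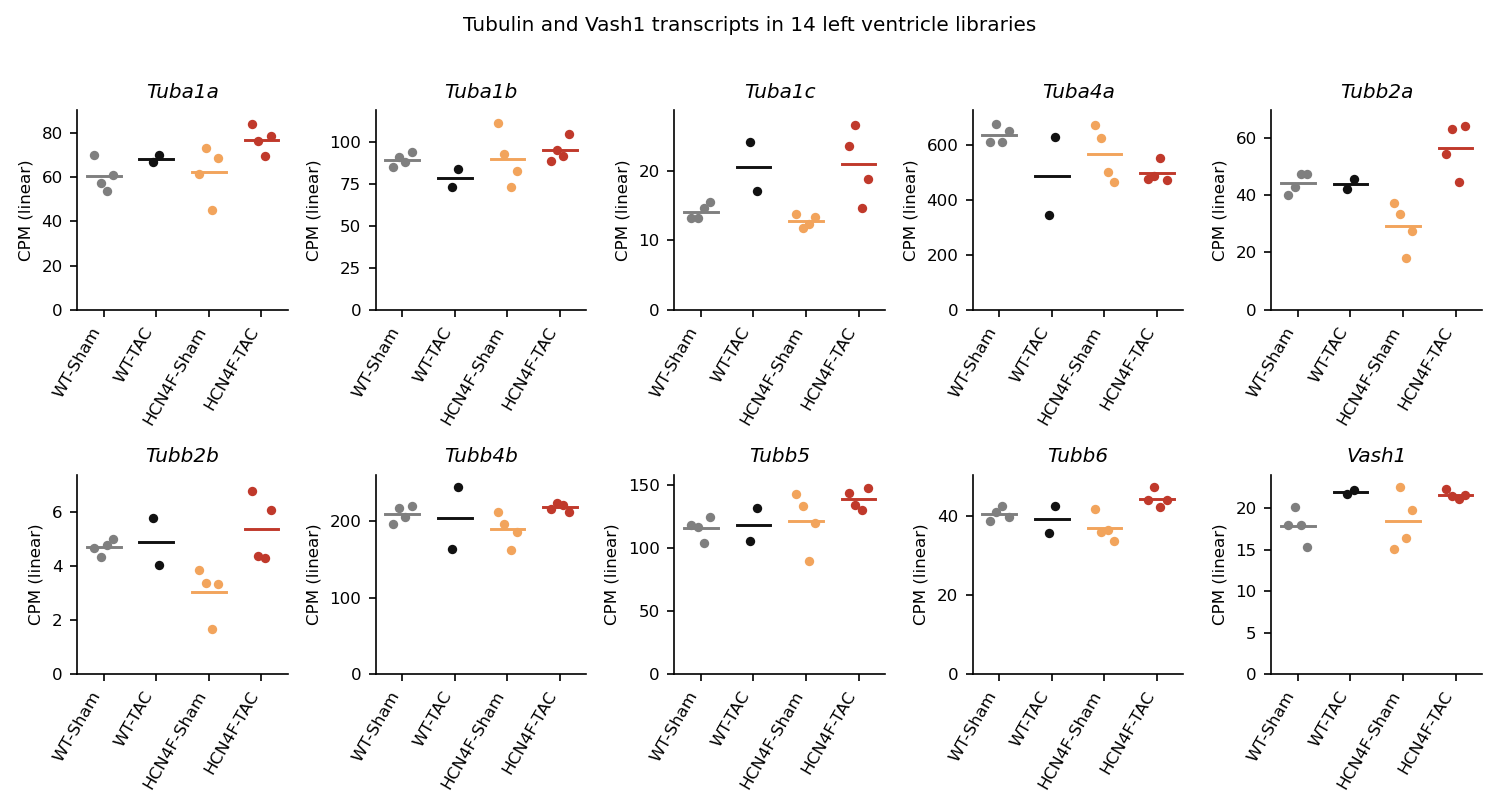
CPM (linear axis from 0) of the 10 genes in each of the 14 libraries by group; points are libraries and lines are group means. For Tubb2a, Tubb2b, Tuba1c and Tubb6 each HCN4F-TAC library lies above each HCN4F-Sham library, and the 2 WT-TAC libraries stand far apart for Tuba4a.

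Markers of other cells moved in the same comparison. All 5 markers of activated fibroblasts rose in HCN4F hearts after TAC (Postn 2.07, Cthrc1 2.18, Fn1 0.82, Comp 3.18 and Cilp 3.27 on the log2 scale), and their summed level went from 60.9 to 99.5 CPM in HCN4F-Sham to 133 to 423 CPM in HCN4F-TAC hearts (at most 305 CPM without replicate 2). Of the 6 fibroblast markers, Col1a1 (1.14) and Lum (0.51) rose. Of the 8 ventricular cardiomyocyte markers, Myh6 (-0.27), Tnnt2 (-0.23), Tnni3 (-0.59) and Myl2 (-0.30) fell and Actc1 (0.29) rose. Their summed level was 64150 to 68514 CPM in HCN4F-Sham and 54222 to 61082 CPM in HCN4F-TAC hearts. Of 5 tested neural and Schwann cell markers 4 fell, and the summed level of that list was 7.45 to 15.2 CPM in HCN4F-Sham and 3.03 to 6.76 CPM in HCN4F-TAC hearts. Of 3 tested atrial markers Nppa, a natriuretic peptide also made by overloaded ventricles, rose. The summed level of the 5 atrial markers was 70.4 to 136 CPM in HCN4F-Sham and 412 to 1863 CPM in HCN4F-TAC hearts, without overlap, and at most 1184 CPM without replicate 2. Nearly all of this sum was Nppa, at 69.0 to 134 CPM in HCN4F-Sham and 410 to 1832 CPM in HCN4F-TAC hearts. Sln and Myl7 had 0 reads in HCN4F-TAC replicates 1 and 3. None of the 6 endothelial, 6 smooth muscle and pericyte, 6 macrophage or 6 cycling markers passed in edgeR, of which 0, 0, 1 and 2 had an unadjusted p under 0.05. Over all tested genes 7.2% rose, 6.41% fell and 28.3% had an unadjusted p under 0.05 in this comparison. The part of these cells in the change of the tubulins was not tested. In bulk tissue, more cells of a type and more RNA per cell cannot be told apart.

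Vash1 (ENSMUSG00000021256) showed higher mean levels after TAC in both genotypes, but did not pass in either. It stood at 18.0, 20.2, 18.0 and 15.4 CPM in WT-Sham and at 21.8 and 22.2 CPM in WT-TAC hearts, which did not overlap. In HCN4F-Sham it was 15.1, 22.5, 16.5 and 19.8 CPM, and in HCN4F-TAC 22.4, 21.5, 21.2 and 21.6 CPM. Here the groups overlapped through HCN4F-Sham replicate 2, the highest of all 14 libraries, and the HCN4F-TAC libraries lay close together. The log2 fold change was 0.30 ± 0.13 (SE) in WT hearts, at an edgeR adjusted p of 0.190, and 0.23 ± 0.11 (SE) in HCN4F hearts, at an edgeR adjusted p of 0.171. In HCN4F hearts Vash1 passed without HCN4F-Sham replicate 2, at 0.34 on the log2 scale (adjusted p of 0.0391).

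Of the other genes of the tyrosination cycle, 1 rose, by a small amount. Ttl, the ligase that restores the tyrosine, rose in HCN4F hearts from 28.8 to 34.0 CPM, a log2 fold change of 0.24 ± 0.07 (SE) at an edgeR adjusted p of 0.0349. The test was no longer passed without HCN4F-Sham replicate 1, 2 or 4 or HCN4F-TAC replicate 1, 2 or 4, with adjusted p-values of 0.0607 to 0.0960 in edgeR. It was also lost without a filter on low counts (0.0737) and in fits on the HCN4F groups alone with DESeq2 (0.0581) or edgeR (0.0944), 9 of 16 alternatives in all, while the log2 fold change stayed at 0.20 to 0.28. In WT hearts the value of Ttl was 0.20 (edgeR adjusted p of 0.184), from 29.2 to 33.6 CPM. Svbp, the partner that Vash1 needs, had 11.7 to 13.4 CPM as group means, with log2 fold changes of -0.18 in WT and 0.00 in HCN4F hearts and adjusted p-values of 0.482 and 0.985 in edgeR. Vash2, the other carboxypeptidase, had 0 to 12 reads per library and was not tested. Between the genotypes and in the interaction, Ttl and Svbp had log2 values of -0.04 to 0.19 and did not pass. Of the 5 genes on this list 4 were tested, and Ttl alone passed, in HCN4F hearts, while 0 passed in WT hearts, where 1 had an unadjusted p under 0.05 in edgeR. Over all tested genes 13.6% passed in HCN4F and 4.54% in WT hearts, where 22% had an unadjusted p under 0.05. The order of these shares depends on the fit. On the compared groups alone edgeR passed 1287 of 14338 genes in HCN4F and 2009 of 14752 in WT hearts.

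**Figure D3:**
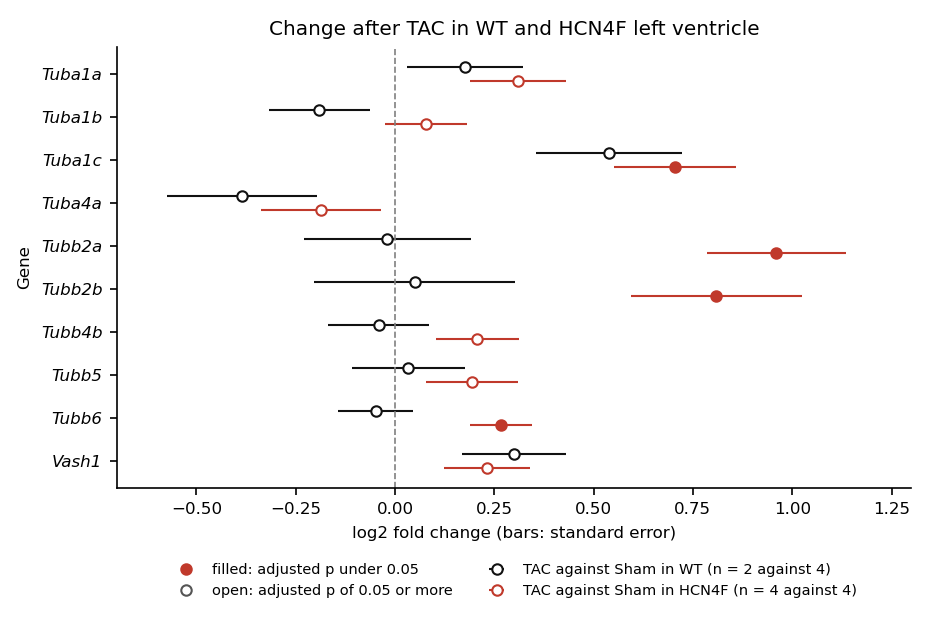
Log2 fold change after TAC of the 10 genes in WT (black) and HCN4F (red) hearts; bars are standard errors and filled points have an adjusted p under 0.05 in edgeR's quasi-likelihood test. Filled points are Tuba1c, Tubb2a, Tubb2b and Tubb6 in HCN4F hearts, and Tubb2a lies at 0.96 in HCN4F against -0.02 in WT hearts.

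In WT hearts no member passed after TAC in edgeR's test, where 4.54% of all tested genes did (2.92% higher and 1.62% lower). That share rests on 694 genes, against 163 without WT-Sham replicate 1 and 160 without WT-Sham replicate 4. Fitted on the WT groups alone, edgeR passed 2009 of 14752 genes, and on the HCN4F groups alone 1287 of 14338. Which genotype had the larger share therefore depended on the fit. At an unadjusted p under 0.05 there were 2 members, Tuba1c and Vash1, against 22% of all tested genes, and by the study's threshold 0 members against 0.706% of all tested genes. DESeq2 fitted on all groups passed 0 members too. The comparison sets n = 2 against n = 4. In these hearts 2 of 8 cardiomyocyte markers, 1 of 6 fibroblast markers and 1 of 5 tested neural and Schwann cell markers fell, and 0 of 5 activated fibroblast markers passed in edgeR, with 0 at an unadjusted p under 0.05, and their part was not tested. Libraries did not overlap for 3 of 10 members (Tuba1b, Tuba1c and Vash1), against 39.2% of all tested genes.

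Tuba1c had the largest WT value. It was 13.2, 13.2, 14.6 and 15.6 CPM in WT-Sham and 24.1 and 17.2 CPM in WT-TAC hearts, so that both WT-TAC libraries were above the WT-Sham range. The difference on the log2 scale was 0.54 ± 0.18 (SE) at an edgeR adjusted p of 0.0998. With WT-TAC replicate 3 alone the value was 0.28, and with replicate 2 alone 0.77, in fits that assume the lone library to vary like the other groups. Fitted on the WT groups alone, Tuba1c passed with edgeR (adjusted p = 0.0197) and with DESeq2 (0.00280). Its adjusted p ran from 0.00280 to 0.552 over the alternatives.

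For Tuba4a the WT-TAC libraries disagreed. The level was 609.9, 674, 609 and 649.9 CPM in WT-Sham and 345 and 629 CPM in WT-TAC replicates 2 and 3. Replicate 2 was the lowest of all 14 libraries and replicate 3 lay within the WT-Sham range. The log2 fold change of -0.38 ± 0.19 (SE) at an edgeR adjusted p of 0.250 became -0.01 without replicate 2 and -0.88 without replicate 3. Tubb4b, the leading beta tubulin, was likewise at 163 and 245 CPM in these libraries, on either side of its WT-Sham range of 196 to 219.7 CPM.

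Tubb2a, Tubb2b and Tubb6, which rose in HCN4F hearts, had values near 0 in WT hearts. Tubb2a was at 40.1, 42.7, 47.2 and 47.4 CPM in WT-Sham and at 42.0 and 45.4 CPM in WT-TAC hearts, within the same range. Its log2 fold change was -0.02 ± 0.21 (SE) at an edgeR adjusted p of 0.973. For Tubb2b it was 0.05 and for Tubb6 -0.05, with 4.32 to 4.998 and 38.8 to 42.7 CPM in WT-Sham and 4.04 to 5.75 and 35.8 to 42.5 CPM in WT-TAC hearts. The remaining log2 fold changes in WT hearts were 0.18 (Tuba1a), -0.19 (Tuba1b), -0.04 (Tubb4b) and 0.03 (Tubb5).

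Whether the response to TAC differed between HCN4F and WT hearts was tested with an interaction term of genotype and surgery. For Tubb2a it was 0.98 on the log2 scale (standard error 0.28), with an unadjusted p of 0.00328 and an adjusted p of 0.418 in edgeR's test, and it ranged from 0.80 to 1.12 over its alternatives. For Tubb2b it was 0.76 and for Tubb6 0.32, with adjusted p-values of 0.509 and 0.473 in edgeR. No member passed, as no gene did in edgeR (0% of those tested). At an unadjusted p under 0.05 there were 3 members, Tubb2a, Tubb2b and Tubb6, against 9.27% of all tested genes, and DESeq2 passed 40 genes but 0 members, with an adjusted p of 0.0722 for Tubb2a. The tests therefore do not show that the responses of these genes differed between the genotypes.

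In Sham hearts no member passed between HCN4F and WT in edgeR's test, against 0.471% of all tested genes (0.229% higher and 0.242% lower). This share rests on 72 genes, against 19 without WT-Sham replicate 2, 567 without HCN4F-Sham replicate 1 and 362 with DESeq2 on all groups. By the study's threshold the count was likewise 0, against 0.209%, and 2 members, Tubb2a and Tubb2b, had an unadjusted p under 0.05, against 15.2%. For both, each HCN4F-Sham library lay below each WT-Sham library, which held for 2 of 10 members and 8.56% of all tested genes. Tubb2a averaged 29.1 CPM ± 8.27 (SD, n = 4) in HCN4F-Sham and 44.3 CPM ± 3.58 (SD, n = 4) in WT-Sham hearts. Their log2 difference was -0.61 ± 0.17 (SE) at an edgeR adjusted p of 0.130, and -0.44 without HCN4F-Sham replicate 3. It passed with DESeq2 fitted on all groups (adjusted p = 0.0205) or on the Sham groups (0.0263), and in edgeR without HCN4F-Sham replicate 1 (0.0323), within a range of 0.0205 to 0.286. Tubb2b differed by -0.62 ± 0.22 (SE) at an edgeR adjusted p of 0.191. The other 8 members had log2 fold changes between -0.17 (Tuba4a) and 0.07 (Tubb5). The rise of Tubb2a in HCN4F hearts and this difference share the HCN4F-Sham libraries and are not independent of each other.

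After TAC no member passed between HCN4F and WT in edgeR's test, against 0.111% of all tested genes (0.0589% higher and 0.0523% lower), and DESeq2 passed 0 members as well. The share over all genes depends on the fit. It rests on 17 genes, against 3 with edgeR fitted on the compared groups, 228 with DESeq2 on all groups and 454 without HCN4F-TAC replicate 3. By the study's threshold the count was 0, against 0.0719%. At an unadjusted p under 0.05 there was 1 member, Tuba1b, against 12.5%, and it was also the 1 member without overlap, against 22.2% of all tested genes. Tuba1b stood at 88.5, 95.4, 91.4 and 105 CPM in HCN4F-TAC and at 72.8 and 83.9 CPM in WT-TAC hearts. Its log2 fold change was 0.28 ± 0.13 (SE) at an edgeR adjusted p of 0.385. Tubb2a was at 44.7 to 63.9 CPM in HCN4F-TAC and 42.0 to 45.4 CPM in WT-TAC hearts, a log2 difference of 0.37 ± 0.21 (SE) at an edgeR adjusted p of 0.506. Its groups overlapped through HCN4F-TAC replicate 3 alone. The other members lay between -0.02 (Vash1) and 0.23 (Tubb5). Markers of other cells differed here too, though none passed. All 5 activated fibroblast markers (median log2 fold change 1.99) and 5 of 6 fibroblast markers (0.41) had an unadjusted p under 0.05 in edgeR. So did 2 of 8 cardiomyocyte, 2 of 6 macrophage and 2 of 6 cycling markers. Their part in the values of the members was not tested.

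Added over the 9 tubulin members, which leaves out Tuba8 and the other tubulins, the message overlapped between HCN4F-Sham and HCN4F-TAC hearts, while the WT-TAC libraries lay on either side of the WT-Sham range. The sum was 1215 CPM ± 48.8 (SD, n = 4) in WT-Sham hearts (1169.7 to 1258) and 861 and 1268 CPM in the WT-TAC libraries. It was 1109 CPM ± 168 (SD, n = 4) in HCN4F-Sham and 1153 CPM ± 14.3 (SD, n = 4) in HCN4F-TAC hearts. The HCN4F-TAC range of 1137 to 1171 CPM lay inside the HCN4F-Sham range of 939 to 1296 CPM. The 5 beta members summed to 309 to 438 CPM in HCN4F-Sham and 443 to 473 CPM in HCN4F-TAC hearts, without overlap. The 4 alpha members summed to 629 to 858 CPM in HCN4F-Sham and 672 to 727 CPM in HCN4F-TAC hearts, in which Tuba4a is the largest term. In HCN4F-Sham, replicate 3 had the lowest beta sum (309 CPM) and replicate 1 the highest (438 CPM).

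Around the tubulins, some genes for microtubule motors and for proteins that bind microtubules rose after TAC in each genotype. Of 39 tested microtubule-associated genes, 5 rose in WT and 7 in HCN4F hearts and none fell, where 2.92% and 7.2% of all tested genes rose, with median log2 fold changes of 0.11 and 0.11. The gene lists were chosen with earlier results of these data known, so that such counts are no test of an excess. Of 21 tested motor genes, 5 rose in WT and 3 in HCN4F hearts and none fell, with medians of 0.09 and 0.13. The medians over all tested genes were -0.02 in WT and -0.01 in HCN4F hearts, and the 10 members had 0.01 and 0.25. Kif5b, the kinesin heavy chain of muscle and many other tissues, went from 138 to 227 CPM in WT and from 154 to 248 CPM in HCN4F hearts, with log2 fold changes of 0.72 and 0.69 and adjusted p-values of 0.00263 and 0.000144 in edgeR. Clip1, which binds growing microtubule ends, rose by 0.68 in WT and 0.64 in HCN4F hearts. Map4, the main microtubule-stabilising protein outside neurons, rose by 0.44 in WT (372 to 505 CPM, adjusted p = 0.0108 in edgeR's test) and by 0.25 in HCN4F hearts (397 to 471 CPM, adjusted p = 0.0217 in edgeR's test).

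Further genes of these lists rose. Mapt, a microtubule-binding protein best known from neurons, rose by 0.48 in WT and 0.30 in HCN4F hearts. The severing enzyme Spast rose by 0.32 in WT and 0.38 in HCN4F hearts, and the dynein light intermediate chain Dync1li1 by 0.39 and 0.66. In WT hearts the microtubule polymerase Ckap5 (0.44) and the motor genes Dync1h1 (0.45), Kif1b (0.61) and Kif3b (0.40) passed, and in HCN4F hearts the end-binding Mapre2 (0.41), Clip2 (0.41) and the kinesin Kif1a (1.13). These means in the other genotype were chosen after they were seen. So were the values of Spast and Dync1li1 in WT and of Mapt in HCN4F hearts, and no alternative was run for any of them. Kif1a was low, at 0.76 to 1.06 CPM in HCN4F-Sham and 1.17 to 3.33 CPM in HCN4F-TAC hearts, and no longer passed without HCN4F-TAC replicate 2. Between the genotypes, 0 genes of these lists passed in Sham hearts, after TAC or in the interaction, where 4, 9 and 5 microtubule-associated genes and 4, 3 and 2 motor genes had an unadjusted p under 0.05 in edgeR. Map4 had -0.10 to 0.09 between the genotypes and -0.19 in the interaction.

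**Figure D4:**
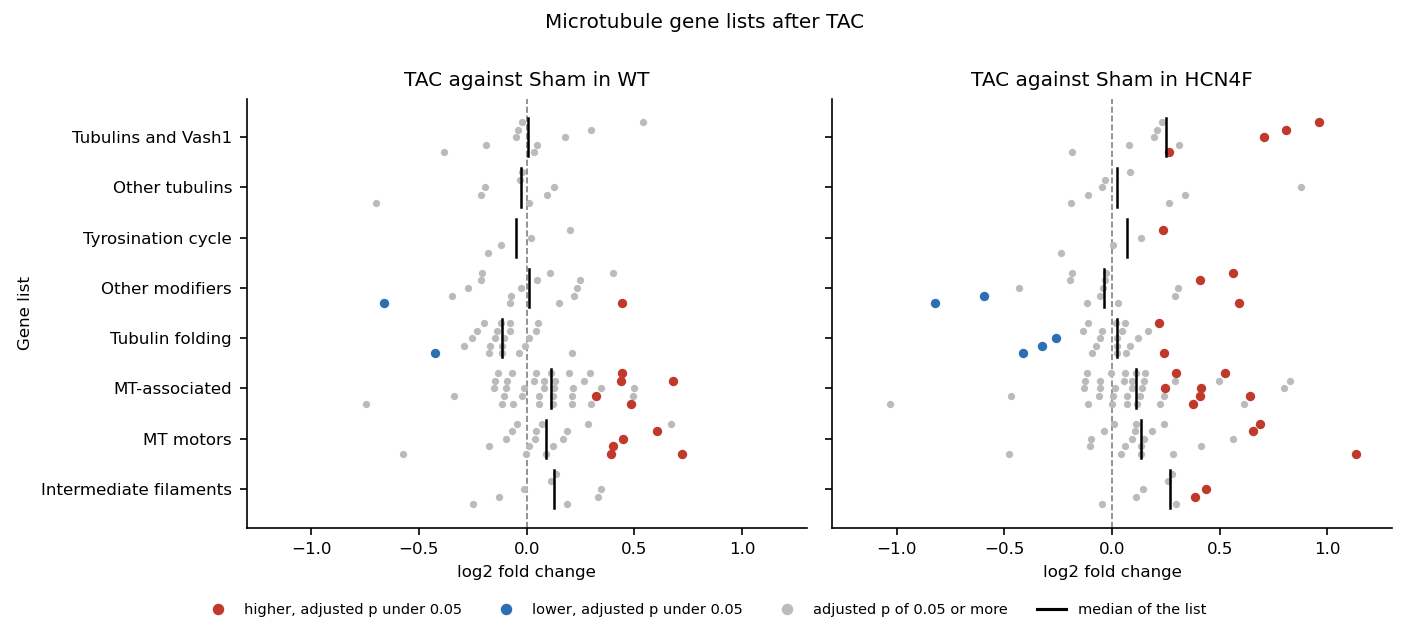
Log2 fold change after TAC of the tested genes of 8 lists in WT (left) and HCN4F (right) hearts; MT stands for microtubule, red and blue points passed as higher and lower in edgeR's test, grey points did not, and black lines are list medians. In HCN4F hearts 4 of 10 tubulin and Vash1 genes passed, where 13.6% of all tested genes did, in WT hearts 0 of 10, where 4.54% did, and no member passed the test of the difference between genotypes. The lists were chosen with earlier results of these data known, and the shares over all genes depend on the fit.

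Among enzymes that modify tubulin at other sites, 1 of 16 rose and 1 fell in WT and 3 rose and 2 fell in HCN4F hearts. Over all tested genes, 2.92% rose and 1.62% fell in WT and 7.2% rose and 6.41% fell in HCN4F hearts, against which the counts of this list and of those that follow are to be read. Ttll1, a polyglutamylase, fell from 66.7 to 42.2 CPM in WT and from 46.5 to 26.3 CPM in HCN4F hearts, with log2 fold changes of -0.66 and -0.82. Hdac6, which removes acetyl groups from alpha tubulin, rose by 0.44 in WT and 0.41 in HCN4F hearts. In HCN4F hearts the polyglutamylase Ttll7 rose by 0.59, and Agtpbp1, which shortens glutamate side chains, had a log2 fold change of -0.59 and fell. Of 21 tested folding factors, Pfdn6 fell in WT (-0.42) and in HCN4F hearts (-0.42). In HCN4F hearts Pfdn5 (-0.32) and Arl2 (-0.26) fell too, and Cct6a (0.24), a subunit of the chaperonin that folds tubulin, was 1 of 2 that rose. None of the 8 other tubulins tested passed in either genotype, with an unadjusted p under 0.05 for 0 in WT and 1 in HCN4F hearts in edgeR. Of 8 intermediate filament genes, Des, the desmin of the Z-disc, rose by 0.44 (2002 to 2713 CPM) and Lmna by 0.38 in HCN4F hearts, while 0 passed in WT, where 2 had an unadjusted p under 0.05 in edgeR. Des was also higher in WT-TAC (2404 to 2472 CPM) than in WT-Sham hearts (2086 to 2219 CPM), without overlap. In the interaction 0 of these 8 genes passed and 0 had an unadjusted p under 0.05 in edgeR, against 9.27% of all tested genes.

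The calls of these lists in WT hearts were tried without each library for the 11 changes that the naming rule chose, which leaves out Spast and Dync1li1. Without WT-TAC replicate 3 each of the 11 missed the threshold in edgeR, with adjusted p-values of 0.0932 to 0.310, and without WT-TAC replicate 2 this held for 8. In these fits WT-TAC is 1 library, assumed to vary like the other groups. The fold changes kept their sign throughout and moved little for Kif5b (0.68 to 0.77), Clip1 (0.64 to 0.72) and Map4 (0.41 to 0.47), and more for Mapt (0.35 to 0.60) and Kif1b (0.48 to 0.72). Without WT-Sham replicate 1 the threshold was missed by 7, without replicate 4 by 7 and without replicate 2 by 2. In HCN4F hearts 12 of the 19 changes chosen by that rule, which leaves out Mapt, passed under every alternative tried: Ttll1, Ttll7, Hdac6, Agtpbp1, Pfdn5, Pfdn6, Clip1, Mapre2, Spast, Kif5b, Dync1li1 and Des. Leaving out HCN4F-TAC replicate 2 removed the most, namely Arl2, Cct6a, Clip2, Kif1a, Map4 and Ttl.

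Across the 14 libraries, levels of several members went together on the log2 scale. The highest Pearson r, 0.87, was that of Tubb2a and Tubb2b, which share reads. It was 0.80 for Tuba1a and Tubb5, 0.78 for Tuba1b and Tubb5 and 0.78 for Tubb2a and Tubb6. After the group means were removed, r was 0.75, 0.84 and 0.47 for these 3 pairs. The highest value within groups was that of the leading alpha and beta genes, Tuba4a and Tubb4b, with r = 0.90 against 0.57 over all libraries. WT-TAC replicates 2 and 3 stood far apart for both, at 345 and 629 CPM of Tuba4a and 163 and 245 CPM of Tubb4b. The value without these libraries was not computed. Tuba4a and Tuba1c went in opposite directions, with r = -0.62 and -0.49 within groups. Among 12554 tested genes with a mean of at least 1 CPM, those most like Vash1 were Papln (r = 0.91), Gopc (0.89), Farp1 (0.89), Nfkb1 (0.88) and Ltbp4 (0.88). Those most like the summed tubulin level were Tomm5 (0.88), Nudt22 (0.85), Ovca2 (0.85), Glrx (0.84) and Gch1 (0.83). These values are descriptions over 14 libraries that share their groups and scaling, and they carry no test.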

How the data were processed

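The deposited values were raw counts, which the authors obtained as reads per gene without normalization. The build is GRCm38 per the labels; aligner, counting program and use of strand are not given in the sources used here. Groups came from the sample labels. Of the 16 samples in the study's description, 14 were analysed, and 2 columns of counts matching none of them were not used. All 14 libraries were fitted in 1 group-means model with edgeR 4.0.16 (R 4.3.3): filterByExpr by group, TMM, quasi-likelihood fit with robust estimation, and Benjamini-Hochberg adjustment over 15292 genes. CPM carry no pseudocount, and log2 CPM used a prior count of 2. Exon lengths came from GENCODE mouse annotation. The steps were tested on simulated data. Alternatives were DESeq2 1.42.0, fits on the compared groups, DESeq2 size factors, other filters, non-robust estimation, a replicate block and leaving out each library.

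The members and gene lists were chosen with earlier results of these data known. All members are named in each comparison, of each list up to 4 genes with the smallest p among those with adjusted p under 0.05 and mean CPM of at least 1, and Ttl, Svbp, Vash2 and Map4 throughout. Figures were drawn with matplotlib 3.10.9.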

Additional observations from a re-analysis of the deposited data

Results flagged for a closer look

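Tuba4a in HCN4F-TAC replicate 3 stood at 552 CPM, apart from the 471 to 485 CPM of the other HCN4F-TAC libraries. Of 30 groups of libraries tested for a value that stands apart, this was the 1 found, and chance alone marks about 1 in 20 such groups. Without this library the log2 fold change of Tuba4a between HCN4F-TAC and WT-TAC was -0.03 in place of 0.03. The same library had the lowest HCN4F-TAC values of Tuba1a, Tuba1c, Tubb2a, Tubb2b, Tubb5, Tubb6 and Vash1.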

How the results depend on the processing

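Over the alternatives, which included other tools, filters and scalings and leaving out each library, Tubb2a and Tuba1c passed in HCN4F hearts after TAC in all 16, with log2 fold changes of 0.78 to 1.10 and 0.56 to 0.84. With the adjusted p alone in place of the study's threshold, 4 members counted in HCN4F hearts instead of 0, and leaving out 1 library gave 2 to 5 by the adjusted p alone and 0 to 1 by the study's threshold. Same-numbered libraries were not paired, since 2 of 18 such pairs deviated together (r above 0.1; range -0.12 to 0.16). A replicate block left 4 members passing in HCN4F hearts, ended the call of 6 of 11 named pathway genes in WT and 1 of 19 in HCN4F hearts, and turned the sign of Tubb2a in WT (0.0590) and of Tuba1c (-0.0206), Tubb2b (-0.0688) and Vash1 (0.0230) between genotypes after TAC. Tubb2a in WT was 0.00588 without a filter on low counts, and Svbp in HCN4F hearts -0.00647 with edgeR on the compared groups. No member that passed changed sign. Leaving out 1 library turned the sign of values that had not passed, the largest 0.25 (Tubb4b in the interaction), with the following ranges. In WT after TAC they were -0.0773 to 0.0373 (Tubb2a), -0.21 to 0.30 (Tubb2b), -0.36 to 0.22 (Tubb4b), -0.13 to 0.19 (Tubb5), -0.18 to 0.0695 (Tubb6) and -0.41 to 0.00952 (Svbp). In HCN4F after TAC they were -0.0179 to 0.20 (Tuba1b) and -0.0919 to 0.0685 (Svbp). Between genotypes in Sham they were -0.0507 to 0.16 (Tuba1a), -0.11 to 0.0969 (Tuba1b), -0.0206 to 0.19 (Tubb5), -0.0615 to 0.13 (Vash1), -0.0731 to 0.0162 (Ttl) and -0.10 to 0.0514 (Svbp). After TAC they were -0.20 to 0.29 (Tuba1c), -0.34 to 0.53 (Tuba4a), -0.11 to 0.40 (Tubb2b), -0.16 to 0.42 (Tubb4b), -0.00855 to 0.0419 (Ttl) and -0.0413 to 0.38 (Svbp). In the interaction they were -0.0634 to 0.42 (Tuba1c), -0.17 to 0.70 (Tuba4a), -0.0142 to 0.57 (Tubb4b), -0.15 to 0.0380 (Vash1) and -0.00443 to 0.42 (Svbp). The cause was not tested. With the longest coding transcript in place of all exons, only neighbours in the order of levels changed places. WT-TAC had 2 libraries, and the number of genes that passed in WT hearts changed with the fit. What further WT-TAC libraries would have done to the WT counts was not tested.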
